A study of Homo sapiens with 10 samples.

Results

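HEK293 cells that went through the whole crosslinking procedure with 4-thiouridine and 365 nm ultraviolet light were compared with HEK293 cells that had neither treatment. Members were the libraries whose labels name those 2 conditions, 4 of the 10 in the series: replicates A and B of the group 4SU_365XL and replicates A and B of the group NO4SU_NOXL. HEK293 is a human embryonic kidney cell line, and polyadenylated RNA was sequenced as short tags. Cells of the treated group were fed 1 mM 4-thiouridine (4SU) for 12 to 14 h and irradiated at 365 nm before harvest, and untreated cells had no 4SU, no crosslinking and no siRNA. The light dose is not stated. A group with 4SU and no crosslinking (4SU_NOXL, replicates A and B) and a group crosslinked at 254 nm without 4SU (NO4SU_254XL, replicates A and B) were used to split the procedure into steps and to compare it with the other procedure. The labels do not state whether replicates A and B were grown as separate cultures. P-values here therefore cover only the spread among these libraries, which may be technical.

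Crosslinking and immunoprecipitation (CLIP) maps where RNA-binding proteins sit on RNA by joining the protein to the RNA with light. In the photoactivatable form of the method, cells build the uridine analogue 4SU into new transcripts, and long-wave light then links 4SU to nearby protein, whereas the classical form uses short-wave light on unmodified RNA. The comparison asks how far the messenger RNA (mRNA) pool measured after the full photoactivatable procedure differs from that of untouched cells.

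The treated libraries held 2402450 tags (A) and 2869446 tags (B), and the untreated ones held 3099769 (A) and 2396069 (B), so that 3 tags equalled 0.968 to 1.25 counts per 1000000 tags (CPM). Levels below are CPM scaled with TMM factors, which assume that most genes do not change. Those factors were 0.37 and 0.50 in the treated libraries and 1.63 and 1.58 in the untreated ones. A fold change is therefore relative to the rest of the library, values after "rose by" are on the log2 scale, and the median log2 fold change of all 13747 tested genes was -0.39. With library totals in place of TMM that median was -2.24, so fold changes on that scale sit lower by about the difference. Of 12 HEK293 markers, all had tags in at least 1 of the 4 libraries, led by the neurofilament gene NEFL and the insulin receptor substrate gene IRS4, while the keratin gene KRT8 had 1 to 3 tags in each library. The summed scaled level of these markers was 402 and 523 CPM in treated libraries and 547 and 617 CPM in untreated ones, and 150 and 262 against 891 and 973 CPM without scaling. Of 15 markers of blood, liver, endothelial, fibroblast and other cells, 8 had no tags in the 4 libraries, and the scaled sum was 73.6 and 80.8 CPM against 18.2 and 13.5 CPM (27.5 and 40.4 against 29.7 and 21.3 CPM without scaling), most of it from the collagen gene COL1A1, which was called higher (log2 fold change 2.23). The part of other cells in the results was not tested. In bulk RNA a change in every cell and a change in the share of cells cannot be told apart.

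The whole procedure shifted the mRNA pool toward short transcripts. Of 13747 genes tested with edgeR's quasi-likelihood test, 3614 (26.3%) were higher and 4445 (32.3%) were lower after 4SU and 365 nm at a Benjamini-Hochberg adjusted p under 0.05. Of the 13747, 11203 had a gene symbol, and the others are transcripts without a symbol that are counted here as genes. Genes called in either direction are 58.6% of those tested, beside the TMM assumption that most do not change. Counts of list members given below are to be read beside the 26.3% and 32.3%. Most changes were large, with 3421 of the higher and 4250 of the lower genes past 2-fold, and 894 and 446 past 8-fold. Genes called higher held 91.9% and 87.2% of all tags in treated libraries A and B, against 45.0% and 37.3% in the untreated libraries. Genes called lower held 2.21% and 2.98% of tags after treatment and 28.1% and 34.9% without it. Both sets of shares follow from how the genes were called and are given as a description of its scale. The split of calls depends on scaling: higher genes were 44.8% of calls with TMM, 9.75% with library totals, 56.0% with DESeq2 and 55.0% after a trend with length was removed. Without treated replicate B, 2727 genes were lower in place of 4445.

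The largest increases were in ribosomal protein mRNAs and other short mRNAs. Sequences around their transcription starts are shown because ribosomal protein mRNAs are the best known members of the TOP class. In TOP mRNAs, whose translation follows growth signals, the transcript begins with a C followed by an unbroken run of pyrimidines. The windows below hold 15 bases before and 15 bases from the annotated start (RefSeq, GRCh38.p14), with the run of C and T from the start in capitals where it is a C followed by at least 4 more pyrimidines.
RPLP1: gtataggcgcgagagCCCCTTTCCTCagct
RPLP2: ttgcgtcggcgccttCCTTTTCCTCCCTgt
RPL39: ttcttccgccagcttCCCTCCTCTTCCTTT
RPL36: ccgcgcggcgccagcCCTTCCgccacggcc
RPS28: tccccgaagcacgtgactcctctccgccag
MIF: aaaaggcgggaccacagtggtgtccgagaa
ROMO1: agcgccctccccgtcgttttccgtgagaga
RPS15: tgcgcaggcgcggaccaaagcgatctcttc
PCSK1N: cagccgcagagcgccgcagcctcgccagct
The windows lie at chr15:69452803-69452832 (plus strand) for RPLP1, chr11:809952-809981 (plus strand) for RPLP2, chrX:119791616-119791645 (minus strand) for RPL39 and chr19:5690280-5690309 (plus strand) for RPL36. Those of the others lie at chr19:8321481-8321510 (plus strand) for RPS28, chr22:23894368-23894397 (plus strand) for MIF, chr20:35699390-35699419 (plus strand) for ROMO1, chr19:1438381-1438410 (plus strand) for RPS15 and chrX:48835596-48835625 (minus strand) for PCSK1N. These 5 have no such run exactly at the annotated base, and of the 12 largest increases under the naming rule 4 had it and 8 did not. The motif, read on the transcript's strand at the start base only, was at 4.07% of the 35116 annotated starts. At least 1 annotated start held it in 705 of 9258 tested genes with a start in the table (7.62%, median log2 fold change -0.0049, against -0.58 for the other 8553), in 46 of 61 cytosolic ribosomal protein genes (75.4%) and in 12 of 13 genes of the elongation factor and TOP list. Outside those lists, genes of the shortest length class had a median log2 fold change of 1.93 with the motif (97 genes) and 1.86 without it (1152 genes). From the next class to the longest these medians were 0.52 with and 0.28 without, -0.19 and -0.59, -0.78 and -1.08, and -1.39 and -1.54.

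All 76 tested cytosolic ribosomal protein genes rose, with log2 fold changes from 2.48 to 4.98 and a median of 4.11. They took 32.1% and 22.6% of all tags in treated libraries A and B, and 6.6% and 5.04% in untreated libraries A and B. At 254 nm without 4SU, all 43 large-subunit and all 33 small-subunit genes were also higher than in untreated cells. The median log2 fold change of these genes there was 2.75. Their share of tags was 18.2% in 254 nm library A, and in 254 nm library B it lay above that of treated library B. RPLP1, which encodes an acidic protein of the ribosomal stalk, stood at 49076 and 23296 CPM after treatment and 1784 and 695 CPM in untreated cells, a log2 fold change of 4.87 (SE 0.69, edgeR adjusted p = 1.73e-07). It was the most abundant transcript in both treated libraries, at 1.83% and 1.16% of tags. Its stalk partner RPLP2 stood at 14836 and 7501 CPM after treatment and 598 and 236 CPM without, a log2 fold change of 4.74. In both genes the lower treated library was several times above the higher untreated one. RPS28 stood at 1498 and 1392 CPM against 66.5 and 24.9 CPM and rose by 4.98 on the log2 scale (SE 0.50, edgeR adjusted p = 2.83e-10). RPS15, of the small subunit, stood at 4968 and 3842 CPM against 193 and 109.5 CPM and rose by 4.86 on the log2 scale. Without untreated replicate A the log2 fold changes of RPLP1, RPLP2 and RPS28 were 5.69, 5.55 and 5.85, and without treated replicate A that of RPLP1 was 4.22. For these 4 genes replicate A exceeded replicate B in the treated and in the untreated group, and those groups did not overlap, as the naming rule required. At 254 nm replicate B exceeded replicate A in all 4 genes.

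Ribosomal protein genes rose at every listed length. The 66 genes whose listed transcript fell in the shortest class had a median log2 fold change of 4.13, and the 10 listed at 1586 to 4906 nucleotides (nt) had a median of 4.03. RPL28, listed at 4439 nt, stood at 10228 and 5913 CPM after treatment and 462 and 232 CPM in untreated cells, a log2 fold change of 4.54. RPL27A, listed at 4906 nt, stood at 8589 and 5207 CPM against 382 and 347 CPM, a log2 fold change of 4.24. Each gene has 1 listed transcript, and which isoform gave the tags was not tested. With the length trend removed these medians were 2.05 for the 66 and 4.23 for the 10.

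Other products of the translation and energy machinery rose too. Of 37 tested subunits and assembly factors of respiratory complexes II to V, 36 rose and 0 fell (median log2 fold change 3.52), and of 33 for complex I, 30 rose and 0 fell (median 3.34). The ATP synthase subunit gene ATP5ME stood at 2552 and 1448 CPM after treatment and 88.0 and 84.6 CPM without, a log2 fold change of 4.53 (SE 0.48, edgeR adjusted p = 7.03e-10). NDUFB7, a complex I subunit, stood at 1740.2 and 1062 CPM against 85.3 and 35.2 CPM, a log2 fold change of 4.53, or 5.30 without untreated replicate A. Every treated library was above every untreated one for both, as the naming rule required. Mitochondrial ribosomal proteins moved less evenly: 53 of 75 rose and 1 fell, with a median of 1.51, and MRPL23 rose by 4.02; with the length trend removed 31 were higher and 9 lower. In the shortest length class the 49 mitochondrial ribosomal protein genes had a median of 1.89, beside 1.55 for all 2753 genes of that class. Of 20 translation elongation factors and TOP mRNAs 19 rose and 1 fell (median 2.90). EEF1G, an elongation factor subunit, stood at 4121 and 2203 CPM against 218 and 159 CPM and rose by 4.07. Of 32 proteasome subunits 23 rose and 2 fell (median 1.86), with PSMB3 at 3.55, and of 17 core proteins of the spliceosomal snRNPs 15 rose and 0 fell (median 2.63), with LSM4 at 3.80. With library totals the medians of mitochondrial ribosomal proteins and of proteasome subunits fell below 0, to -0.37 and -0.0026.

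Several increases were in secreted and small proteins outside those machines. The largest under the naming rule was PCSK1N, an inhibitor of a prohormone convertase, at 899 and 493 CPM after treatment and 32.8 and 2.65 CPM in untreated cells. Its log2 fold change was 5.26 (SE 0.56, edgeR adjusted p = 7.71e-10), and untreated replicate B, with 10 tags, lay far below untreated replicate A, with 166. That value was 8.0 without untreated replicate A and 4.38 without untreated replicate B. The cytokine gene MIF stood at 23287 and 12441 CPM against 948 and 286 CPM and rose by 4.85. MZT2B, a component of the gamma-tubulin complex, stood at 2495 and 1262 CPM against 97.5 and 29.1 CPM and rose by 4.88. ROMO1, a mitochondrial inner membrane protein, stood at 2183 and 1224 CPM against 90.6 and 32.0 CPM and rose by 4.79. Without untreated replicate A the changes of MIF, MZT2B and ROMO1 were 5.95, 6.0 and 5.72, and without untreated replicate B those of MIF and MZT2B were 4.21 and 4.24. No untreated library reached a treated one in these 4 genes, which the naming rule required. Over all tested genes, 33.4% had both treated libraries above both untreated ones and 45.4% had both below.

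**Figure D1:**
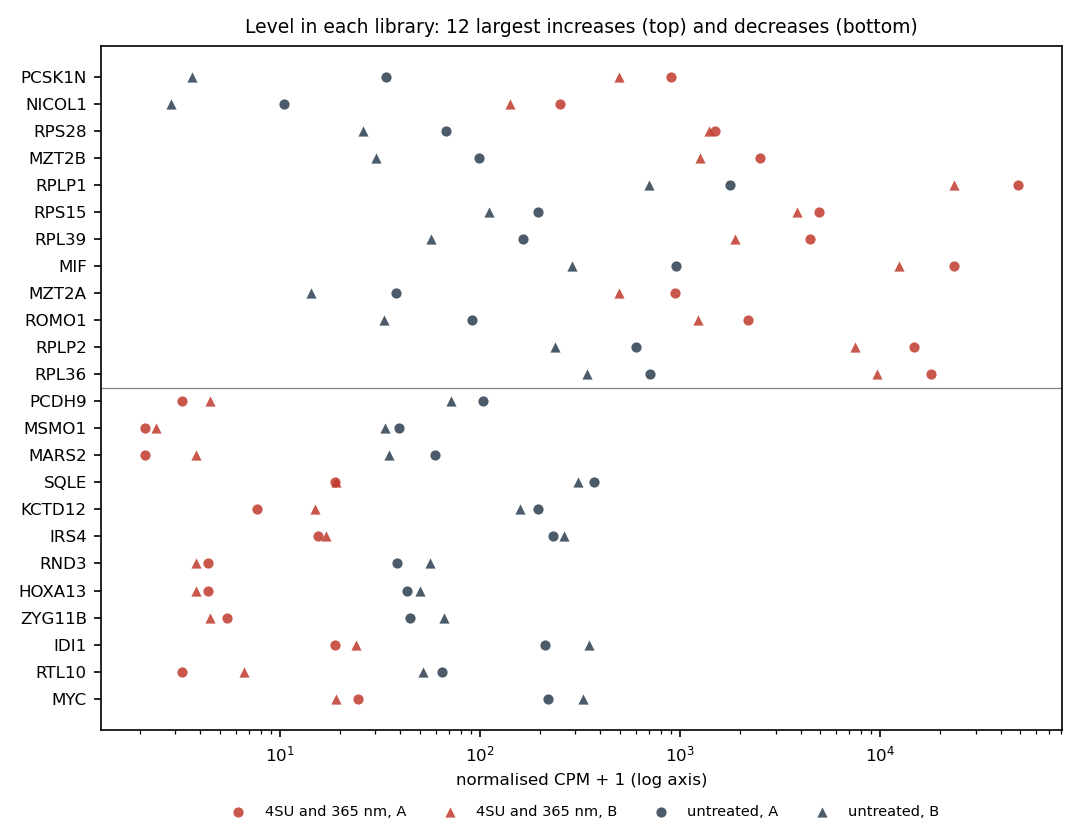
Scaled level in each of the 4 libraries of the 12 genes with the largest increase and the 12 with the largest decrease under the naming rule; the x axis is CPM plus 1 on a log scale, red marks are treated and dark marks untreated libraries, circles replicate A and triangles replicate B. For RPS28 the treated libraries sit at 1498 and 1392 CPM and the untreated at 66.5 and 24.9 CPM. In none of the 24 genes do the groups overlap, as the naming rule required.

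Glycolytic enzymes split by member. Of 14 tested, 8 rose and 1 fell, with a median log2 fold change of 3.23. GAPDH stood at 608 and 694 CPM after treatment and 61.1 and 16.1 CPM in untreated cells and rose by 4.06 (SE 0.46, edgeR adjusted p = 2.06e-09). ENO1, which encodes enolase, stood at 258 and 219.5 CPM against 25.9 and 14.8 CPM and rose by 3.54. In untreated cells both genes stood below MYC (217 and 324 CPM). How their tags were assigned among similar sequences was not tested, so these levels are uncertain. The naming rule required both treated libraries to exceed both untreated ones, and the margin was wide. The change of GAPDH was 5.32 without untreated replicate A and 3.39 without untreated replicate B. The list is not one of short mRNAs only: its 5 members in the middle length class (2322 to 3283 nt) had a median of 3.13, where all 2751 genes of that class had -0.55. Of 15 NRF2 targets and ferritins 8 rose and 4 fell (median 1.97). The ferritin light chain gene FTL rose by 4.10 and thioredoxin, TXN, by 3.49, while GCLC, the catalytic subunit of the glutathione synthesis enzyme, stood at 7.81 and 5.57 CPM against 61.1 and 85.2 CPM and fell by 3.48 on the log2 scale.

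Interferon-stimulated genes differed by length. Of 21 tested, 11 rose and 5 fell, with a median of 1.86, which was 0.53 without treated replicate B and 2.51 without untreated replicate A. Those that fell numbered 3 without treated replicate A and 3 without untreated replicate B. The list's 10 genes in the shortest length class all rose, with a median of 3.25, and of the 5 in the class of 3284 to 4762 nt 4 fell, with a median of -1.84. Among all genes of the shortest class 58.5% rose (median 1.55), and among all of the class of 3284 to 4762 nt 46.5% fell (median -1.04). IFI6, an interferon-induced membrane protein, stood at 100.4 and 64.8 CPM against 6.92 and 2.65 CPM and rose by 4.05. B2M, the light chain of class I antigen-presenting molecules, stood at 2782 and 1708 CPM against 204 and 218 CPM and rose by 3.41. After length and GC trends were removed the list's median was 0.029. Replication-dependent histones had 6 of 13 higher and 0 lower (median 1.15), led by the linker histone gene H1-2 at 693 and 396 CPM against 53.2 and 21.2 CPM, with a log2 fold change of 3.86. Without untreated replicate A the changes of IFI6 and H1-2 were 4.91 and 4.67 and the histone median 1.80. That median turned to -0.86 with the length trend removed and to -0.71 with library totals. Of 18 endoplasmic reticulum chaperones 11 rose and 4 fell (median 1.19), and P4HB, a disulfide isomerase, rose by 3.24. That median was -0.66 with library totals.

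**Figure D2:**
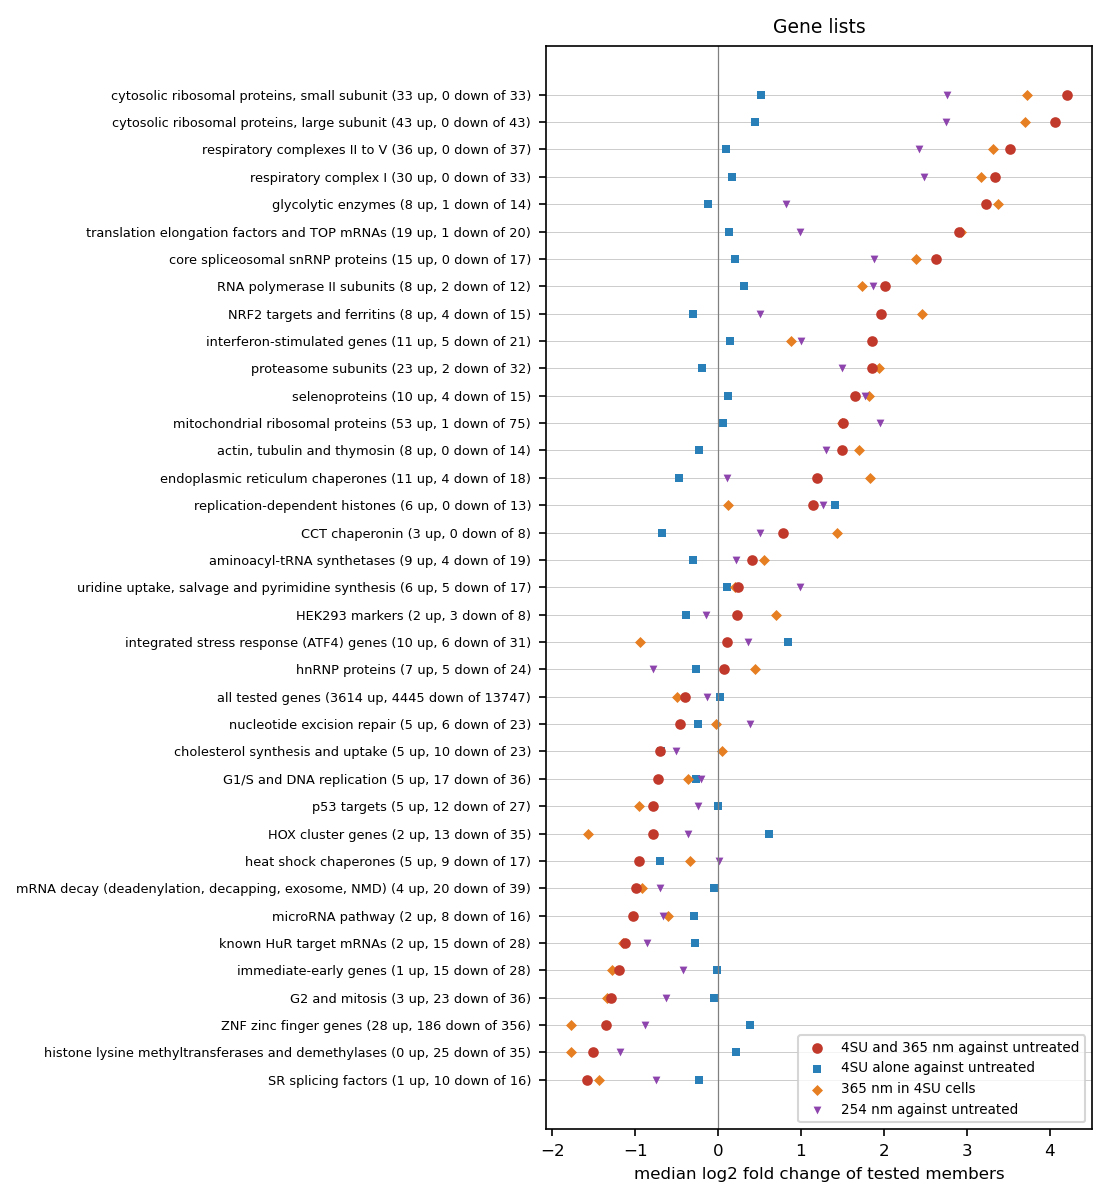
Median log2 fold change of the tested members of each gene list with at least 5 of them, and of all tested genes, in 4 comparisons that share samples; labels give the counts higher and lower for 4SU and 365 nm against untreated, which the red circles show. Small-subunit ribosomal proteins have the highest red median at 4.21 and SR splicing factors the lowest at -1.58, with all tested genes at -0.39.

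Among genes that fell, the cholesterol pathway gave several of the largest changes. Of 23 tested members of cholesterol synthesis and uptake 10 fell and 5 rose, with a median of -0.70. With the length trend removed 9 were higher and 10 lower, with a median of -0.12, near the -0.13 of all tested genes. SQLE, squalene epoxidase, stood at 17.8 and 18.1 CPM after treatment and 371 and 307 CPM in untreated cells, a log2 fold change of -4.23 (SE 0.44, edgeR adjusted p = 4.17e-10). IDI1, the isopentenyl-diphosphate isomerase, stood at 17.8 and 23.0 CPM against 209.9 and 351 CPM and fell by 3.76 on the log2 scale. Each untreated library was at least several times above each treated one. MSMO1, a sterol demethylating oxidase, had 3 tags in both treated libraries together and 317 in the untreated pair, which is 27.9-fold lower per scaled tag (95% exact counting interval 9.46 to 136). With 4SU alone SQLE and IDI1 changed by -2.88 and -2.77 on the log2 scale, and in the 365 nm step by -1.35 and -0.98. MSMO1 had the larger change in the other step. It changed by -1.09 with 4SU alone, which did not pass the test (edgeR adjusted p = 0.07), and by -3.66 in the 365 nm step. The list was chosen with earlier results of these libraries known, so its direction is no independent evidence.

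The transcription factor gene MYC stood at 23.4 and 18.1 CPM after treatment and 217 and 324 CPM in untreated cells, a log2 fold change of -3.72 (SE 0.40, edgeR adjusted p = 7.03e-10). Of 28 immediate-early genes 15 fell and 1 rose (median -1.19), and of 28 known targets of the RNA-binding protein HuR 15 fell and 2 rose (median -1.12), or 9 and 5 with the length trend removed. MYC is in both lists. CCNE1, the cyclin of S-phase entry, stood at 7.81 and 7.67 CPM against 56.0 and 53.2 CPM and fell by 2.81 on the log2 scale. IRS4, abundant in HEK293, stood at 14.5 and 16 CPM against 230.1 and 262 CPM and fell by 4.00 on the log2 scale. In these 3 genes the untreated libraries lay above the treated ones without overlap, as the naming rule required. Of 35 HOX genes 13 fell and 2 rose (median -0.79), near the 32.3% lower among all tested genes, and 8 fell without treated replicate B. HOXA13 fell, with 7 tags in the treated pair and 399 in the untreated pair (15-fold lower, 95% exact counting interval 7.23 to 37.7). These intervals cover counting error only.

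PCDH9, a protocadherin, gave the largest decrease under the naming rule, from 102 and 70.9 CPM in untreated cells to 2.23 and 3.48 CPM. That is 7 tags against 783 (29.5-fold lower, 95% exact counting interval 14.3 to 73.7). KCTD12, a subunit of GABA-B receptor complexes, stood at 6.69 and 13.9 CPM against 193 and 158 CPM and fell by 4.02 on the log2 scale, or 4.72 without treated replicate B. Of 35 histone lysine methyltransferases and demethylases 25 fell and 0 rose (median -1.5), and of 356 zinc finger (ZNF) genes 186 fell and 28 rose (median -1.35). Without treated replicate B 70 ZNF genes were lower. With the length trend removed 72 ZNF genes and 9 histone enzymes were lower, and with length and GC trends removed 65 and 11. KDM2A, a histone demethylase, stood at 11.2 and 7.67 CPM against 55.0 and 59.5 CPM and fell by 2.64 on the log2 scale. Their lengths sit among the longer classes: the 24 histone enzymes in the longest class had a median of -1.84, beside -1.48 for all 2748 genes of that class. Among 36 G2 and mitosis genes 23 fell and 3 rose (median -1.29), and TOP2A, the mitotic topoisomerase, stood at 51.3 and 39.7 CPM against 249 and 419 CPM and fell by 2.89 on the log2 scale. Of 39 mRNA decay factors 20 fell and 4 rose (median -0.99), and of 16 microRNA pathway genes 8 fell and 2 rose (median -1.02). With the length trend removed those lower were 15 of the mitosis genes, 10 of the decay factors (median -0.29) and 4 of the microRNA pathway genes (median -0.31), and with GC removed as well 12, 9 (median -0.17) and 4 (median -0.058). The decay factors of the longest class had a median of -1.54, beside -1.48 for that class.

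Splicing factors differed by family. Of 16 SR proteins 10 fell and 1 rose (median -1.58), 6 were lower with the length trend removed, and SRSF5 stood at 46.9 and 57.1 CPM against 212 and 300.0 CPM and fell by 2.29 on the log2 scale. Of 24 hnRNP proteins 7 rose and 5 fell (median 0.072, which turned to -0.43 without treated replicate B and to -1.73 with library totals), with 3 lower without treated replicate A and 2 without treated replicate B. HNRNPA2B1 stood at 6539 and 7166 CPM against 1046 and 1743 CPM and rose by 2.30. The hnRNP list's counts lie near the shares among all tested genes, 26.3% higher and 32.3% lower. Lists of stress genes also had calls in both directions. Of 31 genes of the integrated stress response driven by ATF4, 10 rose and 6 fell (median 0.11, or -1.78 with library totals): the serine synthesis enzyme PHGDH rose by 2.75, and MTHFD2, a mitochondrial folate enzyme, fell by 1.45 on the log2 scale. In that list 6 rose without treated replicate A and 1 fell without treated replicate B. CHAC1, which degrades glutathione, stood at 40.2 and 18.8 CPM against 13.8 and 6.08 CPM and rose by 1.49 (edgeR adjusted p = 0.00322), and that call was lost without treated replicate A (edgeR adjusted p = 0.173) and its direction turned with library totals, to -0.42 on the log2 scale. Its change was 2.20 without untreated replicate A. Of 17 heat shock chaperones 9 fell and 5 rose (median -0.96): HSPB1, a small heat shock protein, stood at 445 and 263 CPM against 25.3 and 6.88 CPM and rose by 4.43, while HSPA1B, an inducible HSP70, stood at 209.7 and 111 CPM against 1278 and 880.3 CPM and fell by 2.76 on the log2 scale. Without treated replicate B 5 of that list fell, and the change of HSPB1 was 5.66 without untreated replicate A and 3.78 without untreated replicate B. Of 27 p53 targets 12 fell and 5 rose (median -0.78), with BTG2 at -2.89 and 7 lower with the length trend removed. Of 23 nucleotide excision repair genes 6 fell and 5 rose (median -0.46), with DDB1 at 2.76. Beside the shares of all tested genes, the excision repair and ATF4 counts are not read as a result for either list.

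Of 14 actin, tubulin and thymosin genes 8 rose and 0 fell (median 1.5), of 15 selenoproteins 10 rose and 4 fell (median 1.66), and of 12 RNA polymerase II subunits 8 rose and 2 fell (median 2.01). Of 19 aminoacyl-tRNA synthetases 9 rose and 4 fell (median 0.41), of 17 genes of uridine uptake and pyrimidine synthesis 6 rose and 5 fell (median 0.24), and of 8 subunits of the CCT chaperonin 3 rose and 0 fell (median 0.79). Of 36 genes of G1/S and DNA replication 17 fell and 5 rose (median -0.72). Among all tested genes 26.3% were higher and 32.3% lower, and the uridine list's counts lie near those shares. Without treated replicate A 10 of the G1/S list fell and without treated replicate B 1 rose. The synthetases had 4 higher without treated replicate B and 4 without untreated replicate A, and the uridine list 3 lower without either treated replicate in turn. With library totals the medians of actin and tubulin, selenoproteins, CCT, synthetases and uridine genes were below 0, at -0.36, -0.23, -1.05, -1.43 and -1.63. Levels are uncertain for DDB1, FTL, KDM2A, MIF, MSMO1, MTHFD2, PCDH9, RPL27A, RPL28, RPL36 and RPL39, whose deposited values hold tags split with other transcripts, for ribosomal protein genes generally, which have many near-identical pseudogene copies, and for HSPA1B, which has a near-identical neighbour.

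Transcript length ordered the fold changes across the whole table. In 5 classes of equal size by listed length, the median log2 fold change was 1.55 at 216 to 1530 nt, 0.20 at 1531 to 2321 nt, -0.55 at 2322 to 3283 nt, -1.04 at 3284 to 4762 nt and -1.48 above that. In the shortest class 58.5% of genes rose and 5.59% fell, and in the longest 7.50% rose and 60.7% fell. The shortest class held 62.8% and 53.8% of tags in treated libraries A and B, against 24.5% and 18.9% in untreated ones. Genes called higher had a median length of 1656.5 nt and genes called lower 4062 nt, and the tag-weighted median length was 1147 and 1431 nt after treatment and 2666 and 3029 nt without it. The order by length was not particular to this procedure. At 254 nm without 4SU the medians against untreated cells were 1.51, 0.61, -0.09, -0.79 and -1.53 from the shortest class to the longest. There 64.1% of the shortest class were higher and 65.8% of the longest were lower, and the tag-weighted median length was 1534 and 1305 nt. Length and base content are shared by many genes, so these are descriptions with no test.

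**Figure D3:**
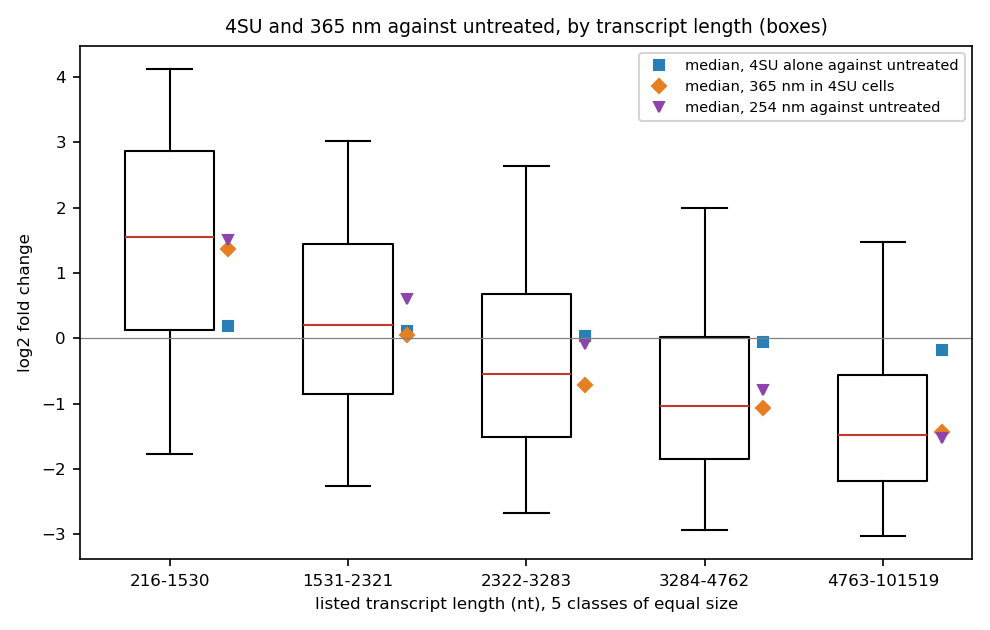
Log2 fold change of 4SU and 365 nm against untreated by listed transcript length in nt, for 5 classes of equal size; boxes show the quartiles with the median in red, whiskers the 5th to 95th percentile, and coloured marks the medians of 3 comparisons that share samples with it. The box median falls from 1.55 in the shortest class to -1.48 in the longest, while the 4SU marks stay between 0.18 and -0.17. The 254 nm marks fall from 1.51 to -1.53 over the same classes.

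Uridine content went with the fold change inside each length class. Split into 3 equal groups by the share of U, the shortest genes had medians of 2.53, 2.02 and 1.04 from low to high U, and the longest had -0.88, -1.63 and -1.88. At 254 nm, where cells had no 4SU, the shortest genes had 2.32, 1.81 and 1.15 from low to high U and the longest -0.73, -1.68 and -2.04. With 4SU alone the spans were smaller, from 0.37 to -0.079 in the shortest class and from 0.13 to -0.43 in the longest. These comparisons share samples, and low U goes with high GC: genes called higher had a median of 55.5% GC and 21.8% U, and genes called lower 44.2% GC and 27.1% U. GC and U were known for 81.2% of the tested genes. The untreated replicates differed from each other in base content. The fifth of genes with the highest GC held 17.9% of tags in untreated replicate A and 10.6% in B. In treated replicates A and B it held 22.0% and 22.2%. The fifth with the lowest U held 19.0% and 12.9% in untreated A and B, and 21.8% and 22.3% in treated A and B. How far the order by U and GC rests on untreated replicate B was not tested.

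**Figure D4:**
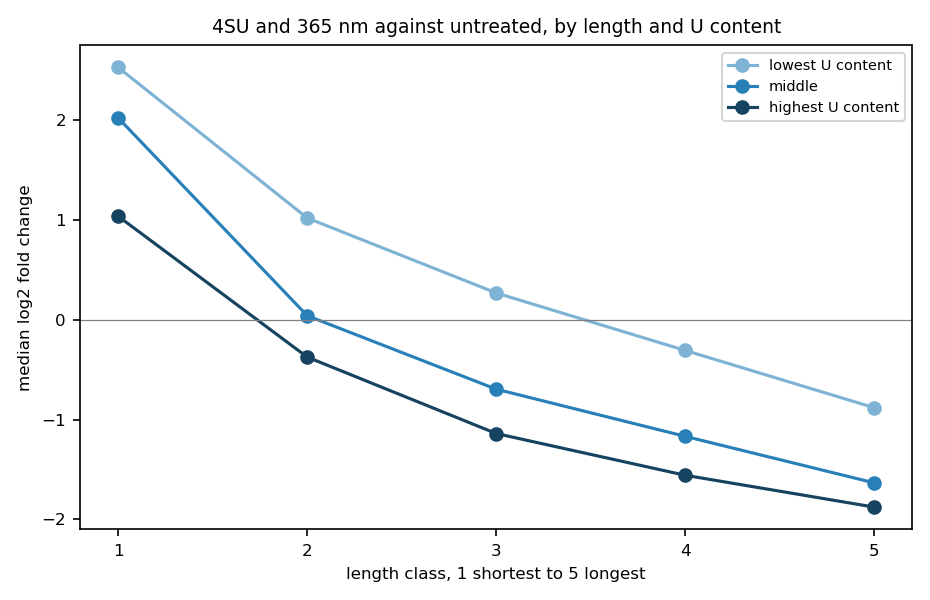
Median log2 fold change of 4SU and 365 nm against untreated (y axis) in 5 length classes (x axis) for genes split into 3 equal groups by U content within each class. The line of the group with the lowest U stays above the others in every class, from 2.53 to -0.88.

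Some genes did not follow their length. RAB9A, a small GTPase listed at 1097 nt, stood at 4.46 and 4.18 CPM after treatment and 34.2 and 34.7 CPM in untreated cells and fell by 2.99 on the log2 scale (SE 0.51, edgeR adjusted p = 4.49e-06). ID2, an inhibitor of basic helix-loop-helix factors listed at 1402 nt, stood at 16.7 and 11.1 CPM against 68.3 and 92.1 CPM and fell by 2.56 on the log2 scale. Both lie among the 154 of 2753 genes in the shortest class that fell. In the opposite corner, 206 of 2748 genes in the longest class rose. SMPD4, a sphingomyelinase listed at 4920 nt, stood at 960.4 and 493 CPM against 75.6 and 48.9 CPM and rose by 3.54. IRAK1, a kinase of innate immune signalling in the class below it, at 3589 nt, stood at 3435 and 2672 CPM against 263 and 210.0 CPM and rose by 3.69.

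Within the same fit the procedure was split into a 4SU step and a 365 nm step on cells that already held 4SU. The comparison of 4SU alone with untreated cells called 3.86% of genes higher and 3.64% lower, and that of 365 nm in 4SU cells called 26.1% higher and 33.5% lower (59.7% in all, against 7.50% for 4SU alone). The whole-procedure change is the sum of both steps and shares their samples. Ribosomal proteins had medians of 0.48 in the 4SU step and 3.72 in the 365 nm step. The stress response list had a median of 0.85 and 11 of 31 higher in the 4SU step and a median of -0.95 and 16 lower in the 365 nm step. The changes of CHAC1 were 2.44 in the first step and -0.95 in the second. The HOX list had a median of 0.61 with 4 higher and 1 lower in the 4SU step, and of -1.57 with 24 lower and 1 higher in the 365 nm step.

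The naming rule also took genes that passed the test in the same direction in both steps. ZNF219, a zinc finger factor, stood at 17.2 and 13 CPM in untreated cells, 44.4 and 42.7 CPM with 4SU alone and 154 and 169 CPM after 365 nm, steps of 1.52 (edgeR adjusted p = 0.00312) and 1.89 (edgeR adjusted p = 6.68e-06). HOXA13 went from 42.1 and 49.2 CPM to 10.2 and 11.4 CPM and then 3.35 and 2.79 CPM, and TOB1, an antiproliferative deadenylation adaptor, from 77.9 and 131 CPM to 26.9 and 38.9 CPM and 13.4 and 6.97 CPM. SIRT1, a deacetylase, went from 52.4 and 104 CPM to 24.9 and 29.8 CPM and 6.69 and 7.67 CPM. The libraries of the 3 conditions did not overlap in any of these 4 genes.

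The whole procedure and the 254 nm procedure, which leaves out 4SU, differed for 27.6% of genes: 2089 (15.2%) were higher and 1704 (12.4%) lower after 4SU and 365 nm than after 254 nm. The test is of the difference itself, and 254 nm against untreated called 25.2% higher and 28.0% lower. These counts rest on few libraries. Without treated replicate A they were 1350 and 772, without treated replicate B 1378 and 629, and without 254 nm replicate A 1259 and 961. Higher genes were 55.1% of these calls, and 70.9% with DESeq2, 67.1% with RLE factors, 9.76% with library totals and 68.7% without treated replicate B.

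Genes higher after 4SU and 365 nm than after 254 nm included MSN, ACTR2, PEG10 and CPE, whose levels at 254 nm stood below those of untreated cells. MSN, which encodes the membrane-cytoskeleton linker moesin, stood at 802 and 723 CPM after 4SU and 365 nm, 35.7 and 18.0 CPM after 254 nm and 92.4 and 102 CPM in untreated cells. The difference was 4.82 on the log2 scale (SE 0.42, edgeR adjusted p = 8.28e-11). ACTR2, a subunit of the actin-nucleating ARP2/3 complex, stood at 516 and 571, 26.2 and 14.1 and 117 and 171 CPM in the same order, a difference of 4.75. PEG10, a retrotransposon-derived imprinted gene, stood at 1999 and 2226, 101 and 61.6 and 537 and 799 CPM, a difference of 4.70. CPE, a prohormone-processing carboxypeptidase, stood at 1223 and 653, 63.7 and 41.3 and 88.8 and 86.2 CPM, a difference of 4.16. In all 4 genes untreated libraries lay between those of the 2 procedures. MSN, ACTR2 and PEG10 passed the test against untreated in opposite directions, and the 254 nm change of CPE, -0.74, did not pass (edgeR adjusted p = 0.0943).

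Several gene lists differed between the procedures. Large-subunit ribosomal proteins had 26 of 43 members higher after 4SU and 365 nm than after 254 nm and 0 lower (median difference 1.31), and the elongation and TOP list had 17 of 20 higher and 0 lower (median 1.44). Glycolytic enzymes had 8 of 14 higher and 1 lower (median 1.86), NRF2 targets and ferritins 10 of 15 higher and 2 lower (median 1.57), and hnRNP proteins 11 of 24 higher and 1 lower (median 0.80). Mitochondrial ribosomal proteins went the other way, with 16 of 75 lower and 3 higher (median -0.33). All tested genes had a median of -0.09, with 15.2% higher and 12.4% lower.

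Of 23 cholesterol genes 10 were lower after 4SU and 365 nm than after 254 nm and 3 higher, and of 36 G2 and mitosis genes 5 were lower and 1 higher, beside 12.4% lower among all genes. SQLE stood at 232 and 108 CPM after 254 nm, between the untreated and the treated libraries, a difference of -3.24 (edgeR adjusted p = 2.56e-07), or -2.58 without 254 nm replicate A. CCNE1 stood at 76.8 and 71.8 CPM after 254 nm, a difference of -3.26, and RAB9A at 61.4 and 39.8 CPM, a difference of -3.55. In both genes the 254 nm libraries were above the untreated ones, differences that did not pass the test (edgeR adjusted p = 0.243 and 0.187). CCDC71 stood at 3.35 and 2.09 CPM after 4SU and 365 nm, 56.9 and 41.3 CPM after 254 nm and 27.3 and 16.4 CPM in untreated cells, a difference of -4.22. TMEM177, a mitochondrial membrane protein, differed between the procedures by -3.17 but did not pass against untreated cells (log2 fold change -1.15, SE 0.55, edgeR adjusted p = 0.0677).

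**Figure D5:**
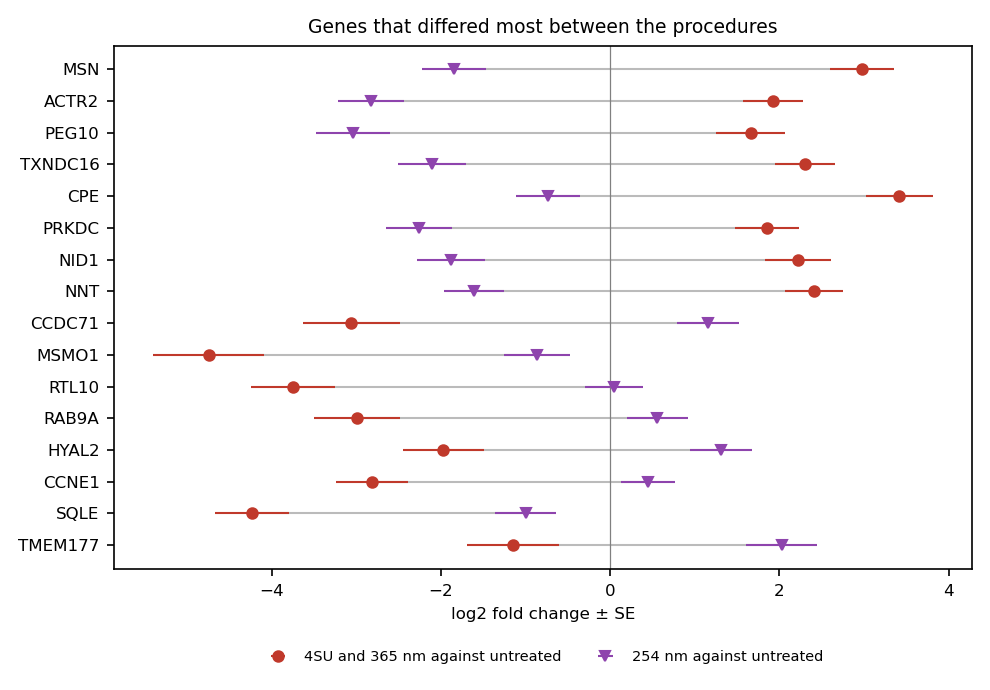
Log2 fold change against untreated with its SE (x axis) for the 8 genes most above and the 8 most below 254 nm after 4SU and 365 nm; red circles are 4SU and 365 nm, purple triangles 254 nm, and both share the untreated libraries. MSN lies at 2.97 and -1.85, and CCDC71 at -3.06 and 1.16.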

How the data were processed

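The deposited tables give, per transcript, tags that the authors counted in each library as estimated counts, fractional where a tag was split between transcripts, and per the file headers the total of tags and the transcript length. The aligner, genome build, annotation and filters are, for these files, not given in the sources used here. Transcripts were named through RefSeq and GENCODE tables (15380 and a further 124 of 23881) and the 8377 others kept without a symbol. Estimated counts were summed over the transcripts of a gene and rounded to whole tags. After edgeR's filter on low counts 13747 features were tested with edgeR 4.0.16 (R 4.3.3, TMM factors, quasi-likelihood test, two-sided, Benjamini-Hochberg over all tested features) in 1 model of 8 libraries in 4 groups of 2, since the groups share the estimate of spread. SE is the log2 fold change divided by the root of F. On simulated counts of 13021 genes for the comparison with untreated cells, 18% of 2-fold and 82% of 4-fold changes were recovered with 3 false calls. There only a small set of genes above median expression changed, as many up as down. The spread was the same for all genes, and there was no trend with length. In the real comparison 58.6% of genes were called, so the simulated figures do not measure how the test performed on it. How many of the calls in the real libraries are false was not tested. The libraries with siRNA were not used.

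Named genes were the 12 largest increases and 12 largest decreases, up to 4 members per list, 6 per direction changed in both steps, 3 per direction and length class, and 8 per direction against 254 nm. Each had passed the test, with mean expression above the median. All but those taken for both steps also had to show no overlap of the compared groups. The members, lists and tests were chosen with earlier results of these data known. Alternatives were DESeq2 1.42.0, other scaling factors, other filters, a replicate block, only the compared groups, transcripts not summed, a threshold of 0.01, length and GC trends removed (lowess span 0.3), and leaving out each library. Depth was 2238569 to 3099769 tags per library.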

Additional observations from a re-analysis of the deposited data

How the results depend on the processing

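Against untreated cells, 3614 higher and 4445 lower genes became 1046 and 9682 with library totals, and the lower genes 2894 with the length trend removed and 2911 with length and GC trends removed. Leaving out 1 library gave 2901 to 3786 higher and 2727 to 4638 lower genes, the fewest of both without treated replicate B. Against 254 nm, 2089 higher and 1704 lower genes became 636 and 5881 with library totals and 1355 and 857 at an adjusted p of 0.01, and the lower genes 948 with DESeq2. Leaving out 1 library gave 1259 to 2395 higher and 629 to 2163 lower genes. With a replicate block the counts were 3756 and 4659 against untreated and 2246 and 1946 against 254 nm. No label ties the letters A and B across groups: deviations of A from the group means correlated across genes between groups at -0.082 to 0.35, so pairing was not assumed, and the block ended no call of a named gene.

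With library totals the log2 fold changes of CCT3 (-0.62), CHAC1 (-0.42), H2BC5 (-0.68), KRT18 (-0.39), TCP1 (-0.51) and WARS1 (-0.19) turned negative. So did the medians of mitochondrial ribosomal proteins (-0.37), proteasome subunits (-0.0026), endoplasmic reticulum chaperones (-0.66), CCT (-1.05), histones (-0.71), actin and tubulin (-0.36), selenoproteins (-0.23), hnRNP proteins (-1.73), the ATF4 list (-1.78), aminoacyl-tRNA synthetases (-1.43), uridine genes (-1.63) and HEK293 markers (-1.60). With length and GC trends removed DICER1 turned to 0.14, EXOSC4 to -0.43, H2BC5 to -0.43, KRT18 to -0.14, the heat shock median to 0.0065 and the histone median to -0.91. With length alone removed H2BC5 was -0.60 and the histone median -0.86. Medians near 0 also turned: uridine genes to -0.044 with length removed, hnRNP proteins to -0.051 and the ATF4 list to -0.031 with no low-count filter, hnRNP proteins to -0.00293 with upper-quartile factors and HEK293 markers to -0.86 with a filter of 5 CPM. Among fits that leave out 1 library the hnRNP median ran from -0.43 (without treated replicate B) to 0.38, and the HEK293 one, 0.23 with all libraries, from -0.41 (without treated replicate B) to 0.66, with -0.12 without untreated replicate A. The cause was not tested. Of 190 results for named genes, 35 lost their call under at least 1 alternative: 17 with length and GC removed, 9 with length removed, 13 with library totals and 1 each without treated replicate A, treated replicate B, untreated replicate A and untreated replicate B. Results for named genes whose direction turned were labelled apart from these. They numbered 6 with library totals, 4 with length and GC removed and 1 with length removed, and none of them kept its call. Depth limits low genes, since 3 tags are 0.968 to 1.34 CPM.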

Other observations

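3 named genes with at least 30 tags in each untreated library had no tag in either treated library. AFAP1, an actin filament-associated protein, had 52 and 49 tags in untreated libraries A and B. DEPDC7 had 31 and 42 tags, and SLC67A2 had 41 and 33 tags. Against a floor of 3 tags over the treated group they were at least 8.88-fold, 6.42-fold and 6.51-fold lower. They were chosen after their values were seen, and no gene with that many tags in both treated libraries was without tags in both untreated ones.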
